A study of Homo sapiens with 2 samples.

Results

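TALE homeobox genes encode transcription factors with a homeodomain lengthened by a loop of extra residues, and the group described here holds MEIS1, MEIS2, MEIS3, PBX2, PBX3, PBX4, PKNOX1, PKNOX2 and TGIF1. These 9 genes were chosen by symbol among the 24462 gene symbols of the count files, and each was found in both. RNA sequencing was done on 1 library of H9 human embryonic stem cells before differentiation (hESC) and on 1 library of neural precursor cells (NPC) that were made from H9 on MS5 feeder cells. Both groups come from 1 human pluripotent line in long use, and MS5 cells are mouse stromal cells that can support neural differentiation. The comparison asks how expression in the derived precursors differed from that in the line of origin. Counted reads totalled 19686728 for hESC and 24065750 for NPC, of which 7243 and 9906 fell on the 9 genes.

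MEIS and PKNOX proteins bind PBX proteins, and the resulting dimers act as cofactors that sharpen the DNA binding of HOX and other homeodomain factors. MEIS and PKNOX (also called PREP) proteins use the same surface of PBX and so compete for it, and PBX partners favour nuclear retention of both. In the developing brain MEIS1 and MEIS2 are known in progenitors and young neurons of the forebrain, eye and midbrain. TGIF1 encodes a TALE repressor that limits TGF-beta and Nodal signalling through SMAD proteins and also binds retinoid X receptors, and loss of human TGIF1 is one genetic cause of holoprosencephaly, a failure of the forebrain to divide.

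Promoter windows were read for the members from a RefSeq table (build GRCh38.p14), which gives 250 bases before and 50 bases after each annotated transcription start. Of the 9 genes 8 were matched, with 16 windows between them; PKNOX2 was not. The first 4 lines belong to 3 of the 4 genes that were higher in the NPC library, and the last to the 1 gene that was lower. They are shown as the starts of genes called in either direction. For TGIF1 the window with most TGACAG matches was taken, after its motifs were seen, so the lines are no comparison of higher and lower genes. The sequences run 5′ to 3′ on the strand of the gene, and capitals mark 2 motifs searched on both strands: TGACAG, the hexamer bound by MEIS, PKNOX and TGIF proteins, and TGATNNAT, the octamer of PBX with HOX partners. No 2 marked matches overlap.
MEIS1, chr2:66434875-66435174, plus strand: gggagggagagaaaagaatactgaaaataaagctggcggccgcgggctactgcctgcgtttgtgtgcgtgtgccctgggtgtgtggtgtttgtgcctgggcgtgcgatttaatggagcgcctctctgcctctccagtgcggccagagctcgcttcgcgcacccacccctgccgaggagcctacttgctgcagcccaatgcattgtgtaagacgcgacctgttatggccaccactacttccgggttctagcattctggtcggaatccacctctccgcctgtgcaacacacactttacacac
MEIS2, chr15:37099057-37099356, minus strand: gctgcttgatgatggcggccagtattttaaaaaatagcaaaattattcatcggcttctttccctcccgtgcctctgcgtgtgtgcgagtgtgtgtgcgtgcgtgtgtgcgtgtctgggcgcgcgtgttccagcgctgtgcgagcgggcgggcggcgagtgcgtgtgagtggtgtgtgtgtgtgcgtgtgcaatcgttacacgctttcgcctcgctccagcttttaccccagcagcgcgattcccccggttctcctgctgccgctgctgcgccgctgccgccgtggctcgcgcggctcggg
MEIS2, chr15:37098647-37098946, minus strand: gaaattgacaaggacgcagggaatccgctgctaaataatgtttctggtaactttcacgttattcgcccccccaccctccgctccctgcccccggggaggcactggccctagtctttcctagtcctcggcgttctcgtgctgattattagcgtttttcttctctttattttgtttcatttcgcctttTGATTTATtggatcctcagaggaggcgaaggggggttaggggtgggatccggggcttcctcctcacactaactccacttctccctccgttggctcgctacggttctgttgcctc
PBX4, chr19:19618638-19618937, minus strand: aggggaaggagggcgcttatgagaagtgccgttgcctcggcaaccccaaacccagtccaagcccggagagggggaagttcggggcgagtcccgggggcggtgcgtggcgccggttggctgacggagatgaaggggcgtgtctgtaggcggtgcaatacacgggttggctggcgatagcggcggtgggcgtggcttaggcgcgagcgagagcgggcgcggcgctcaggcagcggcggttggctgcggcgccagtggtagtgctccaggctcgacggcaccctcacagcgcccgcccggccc
TGIF1, chr18:3449922-3450221, plus strand: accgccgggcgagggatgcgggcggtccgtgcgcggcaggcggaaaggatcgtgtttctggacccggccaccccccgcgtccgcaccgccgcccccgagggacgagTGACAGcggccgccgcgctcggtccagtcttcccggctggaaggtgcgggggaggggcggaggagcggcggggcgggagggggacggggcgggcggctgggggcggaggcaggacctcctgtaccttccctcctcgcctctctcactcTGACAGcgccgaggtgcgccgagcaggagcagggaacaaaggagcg
The MEIS1 and PBX4 windows and the first MEIS2 window held neither motif, while the other MEIS2 window held 1 octamer that begins 64 bases before the start. The TGIF1 window was the 1 of 7 TGIF1 windows with 2 hexamers, beginning 144 bases before the start and at base 5 after it, while 3 TGIF1 windows held neither motif. Over all 16 windows of the members, 3 held TGACAG and 4 held TGATNNAT. Of these, 2 with TGACAG and 3 with TGATNNAT were windows of TGIF1, so both counts rest mostly on 1 gene. The others were windows of PBX3 (TGACAG) and MEIS2 (TGATNNAT). In the whole table of 35116 windows, 15.8% held TGACAG and 7.40% held TGATNNAT.  CG dinucleotides numbered 18 in the MEIS1 window, 35 and 16 in the MEIS2 windows and 35 in the PBX4 window. The printed TGIF1 window held 39 and the other TGIF1 windows between 7 and 30, against a median of 14 over the table. Windows of members without a call held 46 (PKNOX1), 43 (PBX3), 8 (PBX2), and 14 and 13 (MEIS3). Such matches describe the letters of these windows only.

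Of the 9 genes, 4 were higher in the NPC library (MEIS1, MEIS2, PBX4 and PKNOX2) and 1 was lower (TGIF1). The other 4 did not pass the size rule in either direction (MEIS3, PBX2, PBX3 and PKNOX1). A gene was measured when it reached 5 CPM (reads per 1000000 reads of the library, with library sizes scaled by the trimmed mean of M values, TMM) in either library. It was called when its whole 95% counting interval lay 2-fold or more from no change. With 1 library per group no test was possible and the intervals hold counting error only. Over all 13535 measured genes 19.6% were higher and 19.8% lower, and their median log2 ratio was -0.09. The median log2 ratio of the 9 members was 0.62, and all 9 were measured. MEIS1, MEIS2 and PBX4 reached the filter only in NPC, so that a call in the lower direction was closed to them, and PKNOX2, at 5.24 CPM, passed it in the hESC library by little. The share of calls that were higher was 49.7% over all genes, but 67.2% when libraries were scaled by their totals, which adds 0.36 to every log2 ratio, so the ratios here are relative to TMM.

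**Figure D1:**
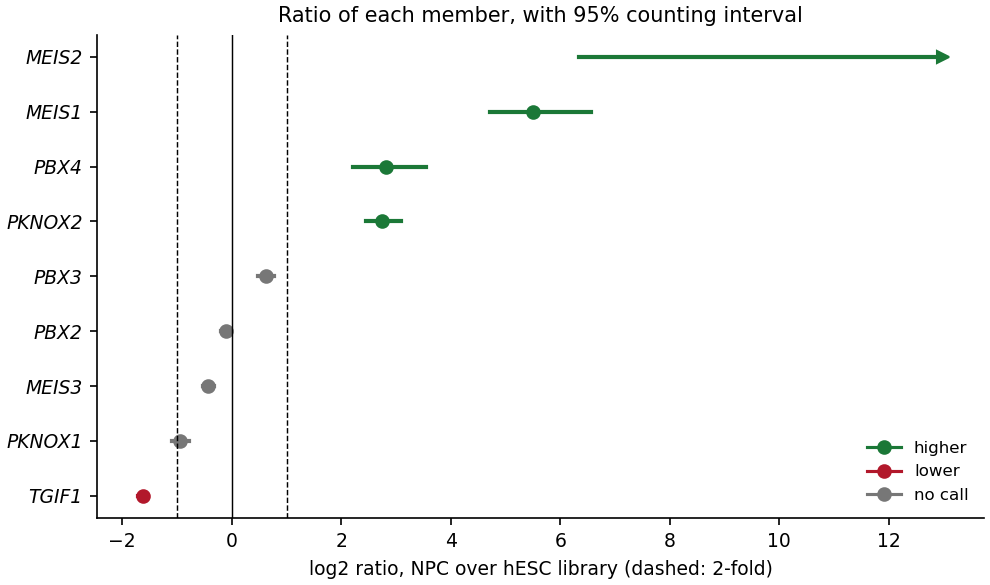
The log2 ratio of the NPC over the hESC library (x axis) is drawn for each of the 9 genes as a point with its 95% counting interval, dashed lines marking 2-fold. MEIS2, with 0 hESC reads, is drawn as a line from its bound against 3 reads, open to the right; 4 genes lie wholly to the right of the dashed lines, TGIF1 lies to the left, and PBX2, close to 0, changes sign when library totals are used.

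MEIS genes differed most among the members. MEIS2, a cofactor gene of forebrain and midbrain progenitors, had 0 reads in the hESC library and 382 reads (14.0 CPM) in the NPC library. Set against a floor of 3 hESC reads, which corresponds to 0.173 CPM, MEIS2 was at least 81.4-fold higher. The counting interval behind its call, which allows for more than 3 reads, began at a log2 ratio of 6.04. MEIS1, a cofactor gene best known from blood stem cells, eye and limb, had 11 reads (0.633 CPM) in hESC against 812 (29.9 CPM) in NPC. The MEIS1 ratio was 47.2 (95% interval 26.2 to 94.9). Both genes were thus at or near the counting limit in the pluripotent cells and clearly counted in the precursors. MEIS3, a less studied paralog linked to hindbrain patterning in frog and fish, had 1579 reads (90.8 CPM) in hESC against 1836 (67.5 CPM) in NPC. Its ratio of 0.743 (0.694 to 0.795) did not pass the size rule.

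Within the MEIS genes the make-up of the reads differed between libraries, and such shares do not depend on how the libraries are scaled. MEIS1 and MEIS2 together took 0.692% of the MEIS reads in the hESC library (exact Clopper-Pearson 95% interval 0.346 to 1.23). In the NPC library they took 39.4% (37.7 to 41.2). The sum of the 3 MEIS genes, counted as CPM per kb of transcript, differed little, at 41.5 for hESC and 39.5 for NPC. The ratio of these sums was 0.952, but 1.21 per kb of coding length and 1.22 with library totals, so the data give no direction for the MEIS genes as a sum. In both libraries MEIS3 was the MEIS gene with the highest level per kb, at 99.7% of the summed level in hESC and 77.9% in NPC. Per kb of coding length its shares were 99.3% and 60.8%, so the NPC share depends on the length used.

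Overlapping and copied loci limit some MEIS values, because the strand setting of the counting is not given in the sources used here. MEIS1-AS2, annotated antisense to MEIS1, had 0 and 19 reads, and MEIS1-AS3 had 13 and 38 reads, more than MEIS1 itself in the hESC library. The pseudogene MEIS3P1, a copy of MEIS3, had 154 reads in hESC against 459 in NPC. How reads that match both were assigned is not given, so the MEIS3 count is uncertain to that extent.

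PBX genes encode the partners that MEIS and PKNOX proteins share, and 1 of the 3 was higher. PBX4, the least broadly expressed PBX gene, had 22 reads (1.27 CPM) in hESC against 249 (9.15 CPM) in NPC and was 7.23-fold higher (4.67 to 11.8). PBX3, known in forebrain, hindbrain and spinal neurons, had 471 reads (27.1 CPM) and 1136 reads (41.8 CPM). The PBX3 ratio of 1.54 (1.38 to 1.72) lay above 1 by more than counting error and stayed under the size rule. PBX2, a broadly expressed member, had 1821 reads (105 CPM) in hESC against 2653 (97.5 CPM) in NPC. The PBX2 ratio was 0.931 (0.877 to 0.989) with TMM, and its log2 ratio turned from -0.10 to 0.25 with library totals, so no direction is given for it. PBX2 stood on 7 rows of each file, of which 6 held 0 reads in both libraries.

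The order of the PBX genes was the same in both libraries. PBX2 made up 76.4% of their summed level per kb in the hESC library and 60.7% in the NPC library. PBX3 followed with 21.8% and 28.7%, and PBX4 with 1.72% and 10.6%. As a share of reads alone, PBX4 went from 0.951% (0.597 to 1.44) to 6.17% (5.44 to 6.95) and PBX3 from 20.4% (18.7 to 22.1) to 28.1% (26.7 to 29.5). PBXIP1, the gene of a protein that binds PBX and blocks its DNA binding with HOX partners, was 4.72-fold higher in the NPC library (4.21 to 5.29), with 348 and 2568 reads.

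Of the 2 PKNOX genes, 1 was higher and 1 had no call. PKNOX2, a paralog with narrower expression than PKNOX1, had 91 reads (5.24 CPM) in hESC against 964 (35.4 CPM) in NPC and was 6.77-fold higher (5.46 to 8.49). PKNOX1, the broadly expressed paralog, had 734 reads (42.2 CPM) and 599 reads (22.0 CPM). PKNOX1 was 1.92-fold lower (1.72 to 2.14), an interval that spans 2-fold and so did not pass the size rule with TMM. With the trend of the ratio with transcript length removed, its log2 ratio moved from -0.94 to -1.17 and it was called lower. Under that setting 20.1% of all genes were lower. With library totals the PKNOX1 log2 ratio moved the other way, to -0.58 (-0.74 to -0.43), without a call. PKNOX1 has the longest annotated transcript of the 9 genes, 5180 bases.

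The leading PKNOX gene differed between the libraries. PKNOX2 took 11.0% of the PKNOX reads in hESC (8.97 to 13.4) and 61.7% in NPC (59.2 to 64.1). Counted as CPM per kb of transcript, PKNOX1 stood at 8.15 (7.57 to 8.76) and PKNOX2 at 1.16 (0.930 to 1.42) in the hESC library. In the NPC library PKNOX1 stood at 4.25 (3.92 to 4.61) and PKNOX2 at 7.82 (7.34 to 8.33). The 2 intervals do not overlap in either library, and the order is the same per kb of coding length. PKNOX2-AS1, annotated antisense to PKNOX2, had 1 and 2 reads.

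TGIF1, the SMAD co-repressor gene, was the 1 member called lower. It had 2514 reads (145 CPM) in hESC against 1275 (46.9 CPM) in NPC and was 3.09-fold lower (2.88 to 3.30). TGIF2, its closest paralog and not one of the 9 genes, had 860 and 897 reads, a ratio of 0.667 (0.606 to 0.733) that did not pass the size rule. TGIF1 held 74.5% (73.0 to 76.0) of the reads of the pair in hESC and 58.7% (56.6 to 60.8) in NPC. Part of the TGIF2 reads may sit on the read-through symbol TGIF2-C20orf24, which had 39 and 36 reads.

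Among 14 genes of SMAD partners and co-repressors that work with TGIF proteins, 1 was higher and 2 were lower, and the list's median log2 ratio was -0.23. All 14 reached 5 CPM in both libraries, so each could have been called either way. SMAD3, the gene of a TGF-beta and Activin effector, was higher by a log2 ratio of 1.74 (1.59 to 1.90). SKIL, which encodes the SMAD repressor SnoN and is induced by TGF-beta signals, was 4.52-fold lower (4.23 to 4.84), and CTBP2, a co-repressor gene, was 2.48-fold lower (2.36 to 2.60). With library totals CTBP2 lost its call, at a log2 ratio of -0.95, and SKIL alone was lower. The shares of 1 and 2 in 14 lie under the 19.6% and 19.8% of all measured genes.

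The levels of the 9 genes were set in order within each library as CPM per kb of the longest annotated transcript. In the hESC library TGIF1 was highest at 47.7 (45.9 to 49.6), followed by MEIS3 at 41.4 (39.4 to 43.5) and PBX2 at 32.7 (31.2 to 34.2). PBX3 at 9.34 and PKNOX1 at 8.15 followed with overlapping intervals, then PKNOX2 at 1.16 and PBX4 at 0.734, which also overlapped. MEIS1 at 0.124 (0.0618 to 0.222) and MEIS2, with no reads, came last. In the NPC library MEIS3 at 30.7 (29.4 to 32.2) and PBX2 at 30.4 (29.3 to 31.6) led and could not be told apart by counting error. TGIF1 at 15.5 and PBX3 at 14.4 overlapped as well. Below these stood PKNOX2 at 7.82, MEIS1 at 5.84 and PBX4 at 5.31, of which the last 2 overlapped, then PKNOX1 at 4.25 and MEIS2 at 2.91 (2.62 to 3.21). The levels of the 9 genes thus lay closer together in the NPC library. The transcripts actually made are not known from gene counts, and with coding length in place of transcript length 9 of the 18 places in these orders moved: MEIS3 and PBX2, and PBX3 and PKNOX1, traded places in hESC, and MEIS3 and PBX2 did so again in NPC, where PBX4 came last.

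**Figure D2:**
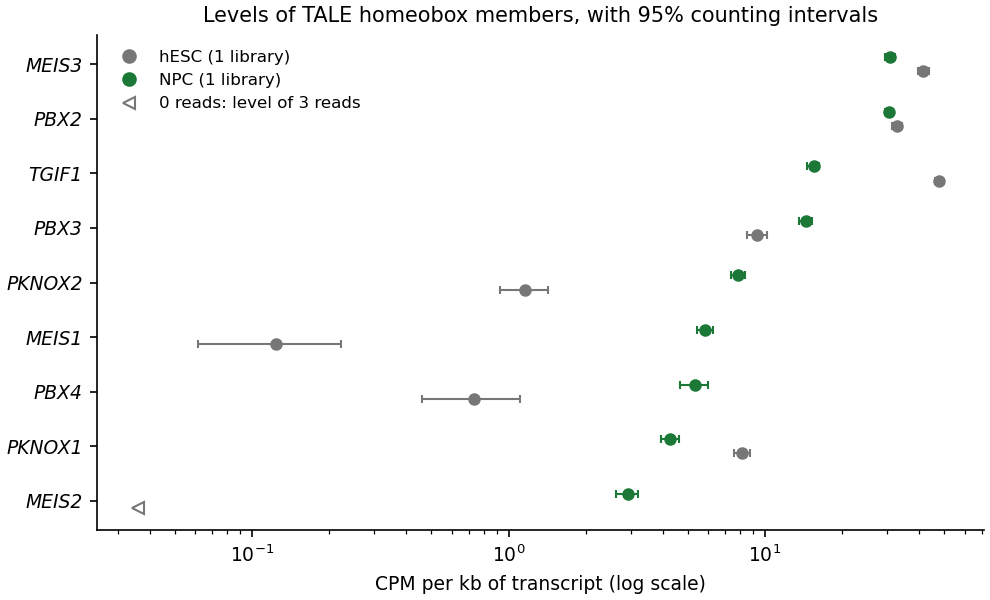
CPM per kb of the longest annotated transcript (log x axis) is drawn for each of the 9 genes in the hESC library (grey) and the NPC library (green), with 95% counting intervals. The hESC points run from 0.124 (MEIS1) to 47.7 (TGIF1), with MEIS2 at 0 reads drawn at the level of 3 reads, and the NPC points run from 2.91 (MEIS2) to 30.7 (MEIS3).

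**Figure D3:**
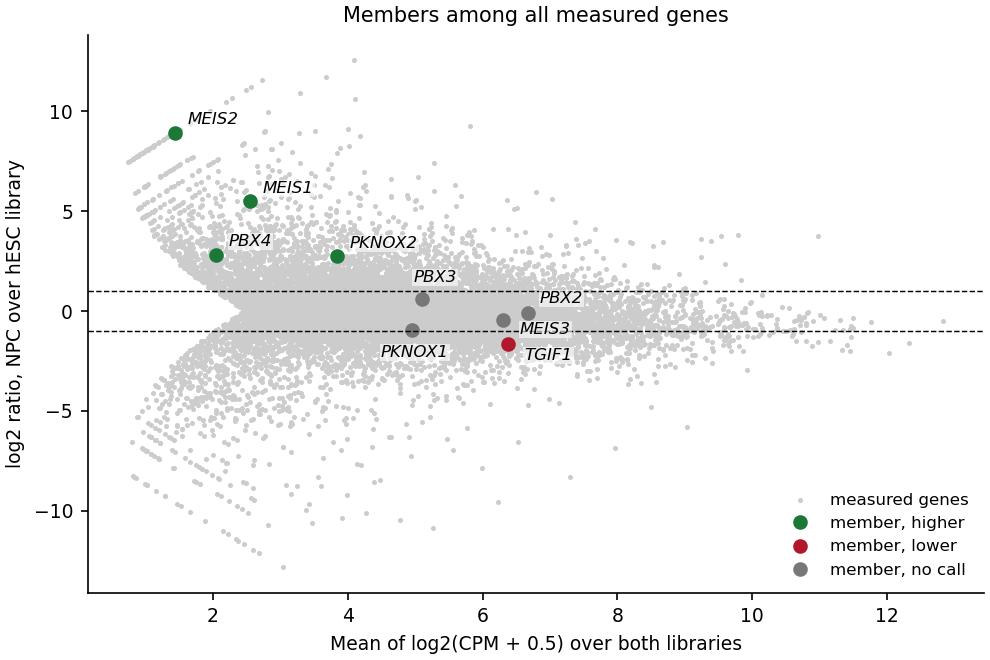
Each measured gene is a grey point, with the mean of log2(CPM + 0.5) over both libraries on the x axis and the log2 ratio of NPC over hESC on the y axis; the 9 members are coloured by their call. MEIS1, MEIS2, PBX4 and PKNOX2 lie above the dashed 2-fold lines at low to middling mean levels, TGIF1 lies below them at a high one, and the height of MEIS2 depends on the 0.5 reads added to its 0 hESC reads.

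HOX genes, the best known partners of these cofactors, were hardly counted. Of 30 HOX genes of paralog groups 1 to 10, 0 reached 5 CPM in either library. Together they had 14 reads in hESC against 110 in NPC, and 23 and 14 of them had 0 reads. The most abundant was HOXA5, with 3 and 38 reads (1.40 CPM in NPC).

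Of 13 partners of MEIS and PBX proteins that are not HOX genes, 7 were measured and all 7 were higher (median log2 ratio 5.62). In hESC only PBXIP1 and OTX2 passed the filter. The other 5 did so in NPC alone, so that a call in the lower direction was closed to them. Over all measured genes 19.6% were higher and 19.8% lower. EMX2, a homeobox gene of the dorsal forebrain, was 584-fold higher (296 to 1354). PAX6, which encodes a forebrain and eye factor that MEIS2 binds in adult neurogenic tissue, was 80.6-fold higher (50.9 to 136), with 18 and 2269 reads. OTX2, a forebrain and midbrain factor gene whose product MEIS2 binds in the midbrain roof, had 250 and 5418 reads and was 13.8-fold higher (12.2 to 15.8). The engrailed genes EN1 and EN2, which act at the midbrain-hindbrain boundary, had 2 and 192 reads and 1 and 183 reads. The list was put together with these libraries' forebrain results already known, so its direction is no independent evidence.

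Retinoic acid is a known inducer of MEIS genes, and its receptors and enzymes went both ways. Of 18 genes 12 were measured, 4 were higher and 4 lower (median log2 ratio 0.10). Over all measured genes 19.6% were higher and 19.8% lower. In both libraries 9 of the 12 reached 5 CPM. ALDH1A1 reached it in NPC alone, and DHRS3 and ALDH1A3 in hESC alone, so each could be called in 1 direction only. With library totals 3 of the list were lower. RDH10, an enzyme gene of retinaldehyde synthesis, was 4.45-fold higher (3.80 to 5.25) and ALDH1A1, which encodes a retinaldehyde dehydrogenase, 5.48-fold higher (3.77 to 8.23). DHRS3, which encodes a reductase that returns retinaldehyde to retinol, had a log2 ratio of -3.31 (-3.88 to -2.81), and the receptor gene RARG was 7.92-fold lower (6.73 to 9.37).

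TGIF1 is also one of the holoprosencephaly genes, and of 15 others 13 were measured, 5 higher and 3 lower (median log2 ratio 0.75). Over all measured genes 19.6% were higher and 19.8% lower. With library totals 7 of the list were higher. Only 5 of the 13 reached 5 CPM in both libraries; SIX3 and FGF8 did so in NPC alone and the 3 lower genes in hESC alone, so each of these could be called in 1 direction only. SIX3, a forebrain and eye factor gene, was 275-fold higher (126 to 750.0), and FGF8, a secreted signal of the anterior forebrain and the midbrain boundary, 39.6-fold higher (26.3 to 62.7). The Nodal co-receptor gene TDGF1 was 1447-fold lower (862 to 2648) and FOXH1, which encodes a DNA-binding partner of SMAD2, 11.6-fold lower (8.98 to 15.1).

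Of the 8 other TALE genes 2 were measured, TGIF2 and IRX2. IRX2, an Iroquois homeobox gene, was 6.73-fold lower (5.71 to 7.96), with 774 and 180 reads. The pattern nearest to that of MEIS2, by Euclidean distance of log2(CPM + 0.5) over the 2 libraries, was that of PGM5 (0 and 368 reads, distance 0.0520), and ZNF503-AS2 (1 and 382 reads, distance 0.157) was also among the nearest. There were 10 genes within a distance of 0.25, and over 2 libraries such likeness shows only similar counts.

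**Figure D4:**
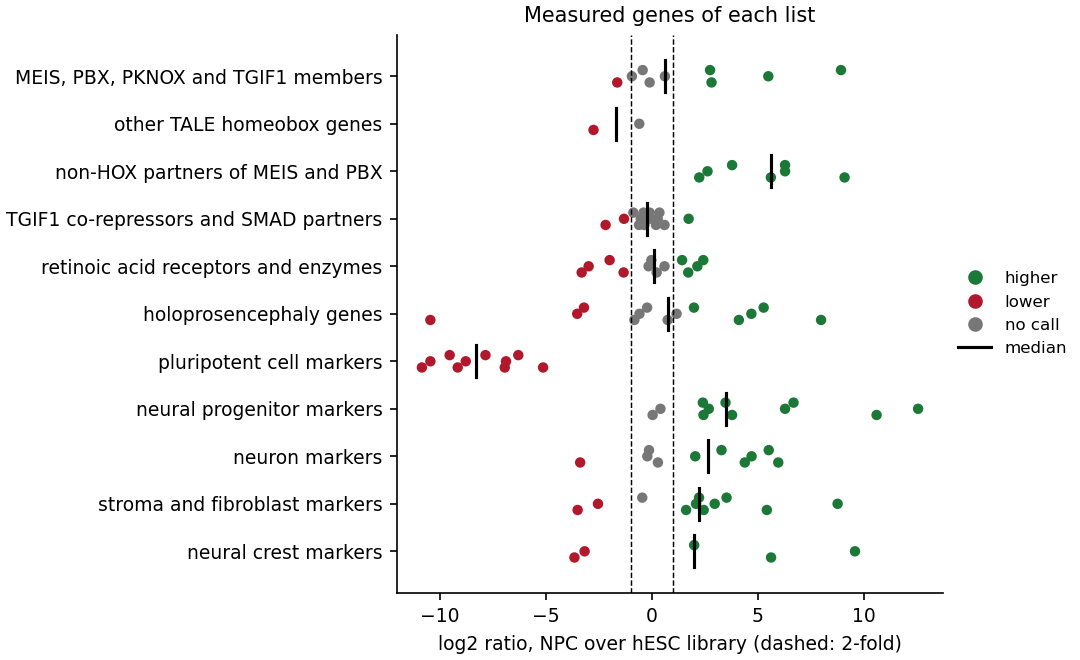
Each point is a measured gene of a list, with its log2 ratio of NPC over hESC on the x axis, coloured by its call, and black bars mark the list's median; the HOX list has no measured gene and is not drawn. The 9 members spread from TGIF1 on the lower side to MEIS2 on the higher side. All 7 measured non-HOX partners lie to the right of the dashed 2-fold lines, and all 10 pluripotent markers lie to the left. Most of these partners and markers passed the filter in 1 library only. Over all measured genes 19.6% were higher and 19.8% lower.

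The cell labels were checked against marker lists. Over all measured genes 19.6% were higher and 19.8% lower. Many markers passed the filter through the library where they are high and could be called in 1 direction only: 1 of 10 pluripotent, 7 of 11 neural progenitor, 7 of 10 neuron and 6 of 11 stroma markers measured reached 5 CPM in both libraries. All 10 pluripotent markers were lower in the NPC library (summed 8397 CPM in hESC and 37.7 CPM in NPC), among them POU5F1, 1903-fold lower (1204 to 3211), and NANOG, 79.2-fold lower (62.5 to 102). Of 12 neural progenitor markers 11 were measured and 9 were higher (summed 989 and 6705 CPM); SOX1 was 109.9-fold higher (55.6 to 255), NR2F1 9140.4-fold (1640.3 to 361051, on 1 hESC read) and ZIC1 1755-fold (685 to 6442). Of 10 neuron markers 6 were higher and 1 lower (summed 446 and 1905 CPM), with MAP2 62.6-fold (55.1 to 71.4) and STMN2 46.2-fold higher (36.9 to 58.6) and RBFOX3 10.5-fold lower (7.97 to 14.1). Stroma and fibroblast markers moved with the higher members too: of 12, 11 were measured, 8 were higher and 2 lower, the summed level was 949 and 1849 CPM, and 0 were without reads in either library. COL3A1 was 455-fold (254 to 912) and DCN 48.4-fold higher (18.7 to 179), while THY1 was 11.4-fold (10.4 to 12.3) and TAGLN 5.81-fold lower (5.27 to 6.40). The part of stromal cells, of neurons or of reads from the mouse feeder in the higher MEIS1, MEIS2, PBX4 and PKNOX2 counts was not tested. In bulk libraries fewer cells of a type and less RNA per cell cannot be told apart, and with 1 library per group a library effect and the group cannot be told apart either.

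The 4 higher genes and TGIF1 kept their calls under the scalings tried. MEIS2 and PBX4 do not reach 20 CPM and drop out with such a filter, and TGIF1 lost its call with a 4-fold bound. MEIS1 had log2 ratios between 4.24 and 5.85, PBX4 between 2.16 and 3.18, PKNOX2 between 2.55 and 3.11 and TGIF1 between -1.66 and -1.27 over the main value, 3 other scalings, removal of the length trend, summing the rows of each symbol and a ratio of CPM + 1. MEIS2, with 0 hESC reads, had the widest range, between 3.91 and 9.29. The lowest MEIS1, MEIS2 and PBX4 values came from the ratio of CPM + 1, which draws low counts towards no change. MEIS3 stayed between -0.46 and -0.07 and PBX3 between 0.59 and 0.98, without a call under any of these settings.

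**Figure D5:**
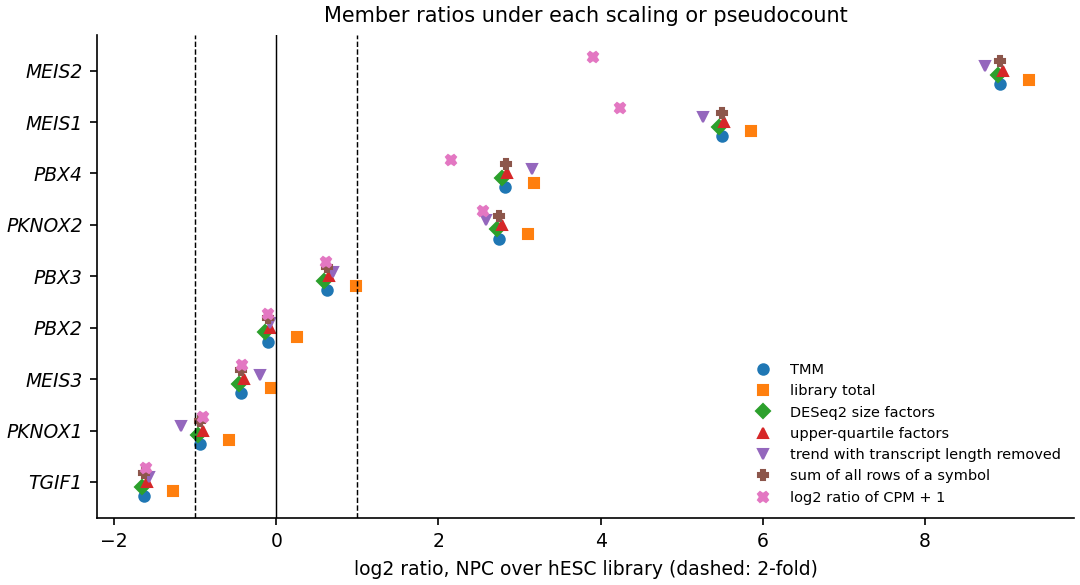
The log2 ratio of NPC over hESC (x axis) of each of the 9 genes is drawn once per scaling or pseudocount. Library totals (orange squares) move every gene to the right by 0.36 and take PBX2 across 0, the ratio of CPM + 1 pulls MEIS1 to 4.24, and the value of MEIS2, at 0 hESC reads, depends on what is added.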

How the data were processed

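The files hold raw read counts per gene symbol, 1 column per library, as deposited by the authors. The submitters' processing notes name TopHat, edgeR and the hg19 build. How and on which annotation reads were counted, with or without strand, and how those with several matches were treated is not given in the sources used here. No row lacked a gene name. For the 286 symbols on several rows, the row with most summed reads was kept, which set aside 0.0878% of hESC and 0.107% of NPC reads.

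Libraries were scaled with TMM factors (0.884 for hESC and 1.13 for NPC; edgeR 4.0.16, R 4.3.3) over all genes. Point log2 ratios add 0.5 reads; fold values in the text are ratios of the counts, with exact Clopper-Pearson intervals on the NPC share of a gene's reads. A gene at 5 CPM rests on 86.9 hESC or 136 NPC reads. Intervals cover counting error only, since each group has 1 library. Reads also carry no molecular identifiers, so reads copied from 1 molecule could not be told apart. The interval code was tested on simulated data. Transcript lengths come from GENCODE 29, of another build than hg19, and were used for lengths only (94.8% of measured genes had one). Promoter windows are RefSeq's. Python 3.11.15, scipy 1.17.1, pandas 2.3.3 and statsmodels 0.14.6 were used.

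The members, lists and rules were chosen with earlier results of these data known. The text names all members, label checks, up to 2 higher and 2 lower genes of each list by the farthest bound (or its most abundant gene) and the 3 genes nearest to the member with the largest ratio. A gene that this rule takes is not reported here. OTX2, PBXIP1, EN1, EN2, TGIF2 and ALDH1A3 were added after their values were seen. So were the rows that could share reads with a member and the genes in the closing section. Alternatives were library totals, DESeq2 1.42.0 size factors, upper-quartile factors, removal of the length trend, summed rows, filters at 1 and 20 CPM or none, a 4-fold bound, the point ratio alone, CPM + 1 and coding length.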

Additional observations from a re-analysis of the deposited data

How the results depend on the processing

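Of 54 alternative values of the members' log2 ratios, 52 kept direction and call. PBX2 turned to 0.25 with library totals, and PKNOX1 was called lower at -1.17 with the length trend removed. The members' median log2 ratio was 0.98 with library totals. The count of higher members was 2 with a filter at 20 CPM (MEIS1 and PKNOX2 are left, since fewer genes pass). The count of lower members was 2 with the length trend removed (PKNOX1 and TGIF1), and 0 with a 4-fold bound. Of 220 list counts 202 stayed within 1.5 times, 8 were larger and 10 smaller. With filters at 1 CPM or none, 7 retinoic acid genes were higher, and with a 4-fold bound 0. Over all genes, calls at 20 CPM numbered 1684 higher and 2030 lower, and with a 4-fold bound 1236 and 983. With 1 library per group no library could be left out. No paired analysis was possible because each group has 1 library. Depth limits MEIS2, MEIS1 and PBX4 in the hESC library, where 3 reads are 0.173 CPM.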

Other observations

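Neural crest markers, a cell type in which MEIS and PBX genes are also known to act, went both ways in these libraries. Of 8 genes 5 were measured, 3 higher and 2 lower, and 1 of the 5 reached 5 CPM in both libraries. Over all measured genes 19.6% were higher and 19.8% lower. With library totals 4 of the list were higher. TFAP2B, a neural border factor gene, had 0 and 603 reads, at least 128-fold higher against a floor of 3 hESC reads (its counting interval began at a log2 ratio of 6.70), and TFAP2A was 54.3-fold higher (23.1 to 168). The receptor genes NGFR and ERBB3 were 12.8-fold (8.82 to 19.0) and 9.04-fold lower (7.64 to 10.8). SOX10, a defining crest and glial factor gene, had 37 and 21 reads and stayed under 5 CPM. FOXD3, of the same list, had 86 and 0 reads and at 4.95 CPM in hESC lay just under the filter. Against a floor of 3 NPC reads FOXD3 was at least 44.9-fold lower, and its counting interval ended at a log2 ratio of -5.16.

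Several TALE and partner genes lay under the filter in both libraries. IRX5 had 11 and 88 reads (3.23 CPM in NPC) and IRX4 had 27 and 4 reads. DLX1, the gene of a ventral forebrain factor, had 0 and 117 reads (4.30 CPM in NPC), and DLX2, whose product works with MEIS2 in newborn interneurons, had 13 and 87 reads. KLF4, whose product can bind with MEIS and PBX, had 18 and 64 reads.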
